A study of Mus musculus with 12 samples.

Results

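The nuclear genes that encode the respiratory chain and ATP synthase were followed in *Ppara*-/- and *Ppara*+/+ fetal mouse livers, complex by complex. Members were chosen by gene symbol, with earlier results of these data known. They were the numbered subunits of complex I (*Nduf* families a, b, c, s and v) and the 4 genes of complex II (*Sdha* to *Sdhd*). For complex III they were the *Uqcr* genes and *Cyc1*, grouped with *Cycs*, which encodes cytochrome c. The rest were the *Cox4* to *Cox8* genes of complex IV and the *Atp5* genes of complex V. The rule found 83 of the 19938 genes measured, of which 35 belong to complex I, 4 to complex II, 10 to complex III with cytochrome c, 17 to complex IV and 17 to complex V. Membership follows the name and not the protein's place, so *Ndufa4*, now known as a subunit of cytochrome c oxidase, stands under complex I. *Cox7c* and *Ndufb4* are missing because their probes are shared with another gene, and *Ndufab1* because its name falls outside the rule.

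Each group held 6 livers, 1 per array, taken whole at E19.5, the last day of gestation. The 6 *Ppara*-/- fetuses lacked functional peroxisome proliferator-activated receptor α (PPARα) in every cell, and the 6 *Ppara*+/+ fetuses carried both intact alleles. All had heterozygous parents, and no group received any agent. The labels give the strain as SV129 while the study's methods give C57BL/6. RNA of each genotype was drawn, according to the methods, from fewer litters than livers. The p-values and intervals below do not allow for shared litters. Because whole livers were measured, fewer cells of a type and less RNA per cell cannot be told apart.

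Electrons from food enter the inner mitochondrial membrane through complex I, which accepts them from NADH, through complex II, which is also succinate dehydrogenase of the citric acid cycle, or through flavoproteins such as the one that serves fatty acid oxidation. Ubiquinone carries them to complex III, cytochrome c carries them on to complex IV, and complex IV passes them to oxygen, while the proton gradient built on the way drives ATP synthesis by complex V. PPARα is a fatty acid-activated nuclear receptor known in mouse liver for raising the genes of fatty acid oxidation, the pathway that feeds this chain.

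Values are log2 signals after normalization between arrays, and a difference of 1 is a 2-fold change. Array medians lay between 6.71 and 6.75, and no signal of one probeset is set against that of another. *Ppara* itself averaged 9.83 ± 0.09 in *Ppara*-/- livers and 10.84 ± 0.10 in *Ppara*+/+ livers (SD, n = 6 each), and no library went against its label. Of the 4 hepatocyte markers (*Alb*, *Apoa1*, *Ttr* and *Cps1*) 0 passed the test, as did 0 of 4 erythroid, 0 of 6 granulocyte and 0 of 5 macrophage markers. Of 3 genes listed as hepatoblast markers *Dlk1* was higher (0.42, limma adjusted p = 0.033). The others, *Afp* and *Krt18*, differed by 0.05 each and were not called, and the study used the protein of *Krt18* to mark hepatocytes. Of 3 stellate cell markers *Reln* was higher (0.16, 0.034) and *Des* lower (-0.39, 0.018). A score of the erythroid markers served as a covariate in a further setting given below. The part of the other cell types in the subunit differences was not tested. The mean level of the hepatocyte list was between 13.35 and 13.38 in the *Ppara*-/- and between 13.32 and 13.39 in the *Ppara*+/+. These levels lay near the top of the signal scale of the arrays, where a change may not show. The 4 hepatocyte markers therefore do not establish that hepatocyte content was equal. The mean level of the erythroid list was between 11.37 and 11.51 in the *Ppara*-/- and between 11.25 and 11.53 in the *Ppara*+/+. Sex, read from *Xist* and Y-linked genes, was unequal, with 5 female and 1 male fetus among the *Ppara*-/- and 3 of each among the *Ppara*+/+.

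Most subunit transcripts lay slightly lower in *Ppara*-/- livers, and few passed the test. With limma and adjustment over all genes, 3 of 83 members were lower (3.61%) and 0 higher, where 3.82% of all genes were lower and 3.42% higher. The share of members called was near that of all genes in this fit. With an intensity trend and robust variances it was 10 of 83, where 4.62% of all genes were lower, and with the dimmest 50% of genes removed 12 of 79, where 10.6% were. The 3 were *Cox6b2* and *Cox5a* of complex IV and *Uqcrq* of complex III. At an unadjusted p under 0.05, 18 members were lower (21.7%, against 10.4% of all genes) and 1 higher (1.2%, against 10.5%).

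The differences were small but leaned to 1 side. They were below 0 for 60 members (72.3%), against 46.5% of all genes, with a median of -0.05 in the members and 0.01 over all genes. For 9 members (10.8%) every *Ppara*-/- liver lay below every *Ppara*+/+ liver, a pattern found in 2.29% of all genes, and for 0 members did they all lie above, a pattern found in 1.3%. The 9 were *Uqcrq*, *Cox6b2*, *Cox5a*, *Cox5b*, *Cox6c*, *Cox7a2*, *Atp5pb*, *Atp5j* and *Atp5h*. Members were measured in the same 12 livers and are not independent of each other. Renewed quantile normalization left 53 members below 0 (63.9%) with a median of -0.03, against 48.3% of all genes. Within the 6 lowest animal numbers of the labels (2 *Ppara*-/- and 4 *Ppara*+/+ livers) 61 members lay below 0 (73.5%, against 44.6% of all genes), and within the 6 highest 67 did (80.7%, against 51.5%). With a sex score as a covariate 58 did (69.9%, against 49%).

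The arrays bounded most changes tightly. The 95% interval lay wholly within a 1.2-fold change either way for 75 members (90.4%), against 72.3% of all genes, and within a 1.3-fold change for 80 (96.4%), against 89.9%. Members were brighter than most genes, as 79 of 83 remained with the dimmest 50% of genes removed. Their median SE was 0.048, against 0.063 over all genes. The shares of all genes given here and above were not matched for signal level. The members whose intervals reached beyond 1.3-fold were *Cox6b2*, *Cycs* and *Ndufa4l2*.

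**Figure D1:**
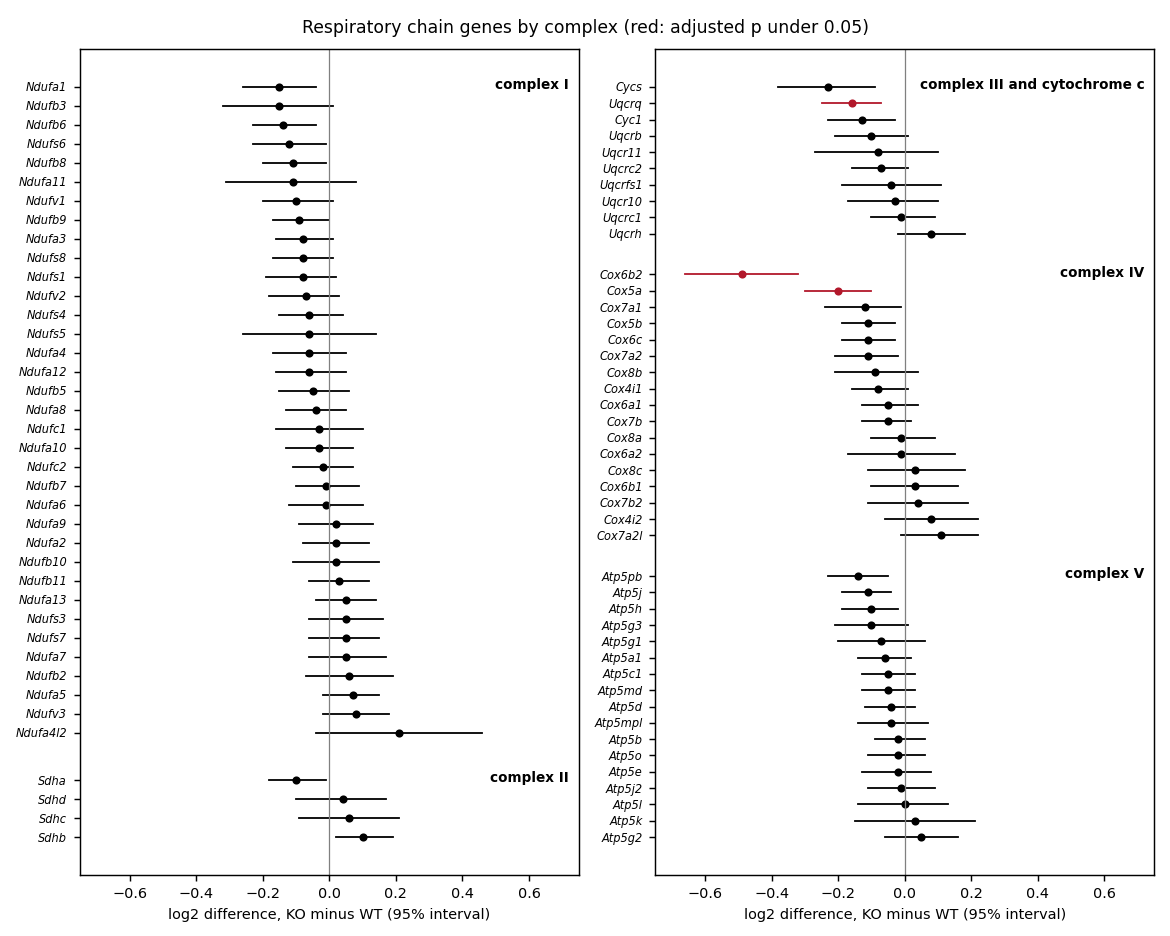
Log2 difference (x axis, *Ppara*-/- minus *Ppara*+/+) with its 95% interval for each of the 83 members, grouped by complex. Red marks *Cox6b2* (-0.49), *Cox5a* (-0.20) and *Uqcrq* (-0.16), the 3 members with an adjusted p under 0.05, and most other points lie between -0.15 and 0.11.

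Complex I, the largest of the complexes and the main entry for NADH, had 0 of 35 members called. Its differences ranged from -0.15 to 0.21 with a median of -0.04, and 23 of 35 were below 0. An unadjusted p under 0.05 was reached by 5 members, all lower, namely *Ndufb6*, *Ndufa1*, *Ndufb8*, *Ndufs6* and *Ndufb9*. These 5 are accessory subunits, as are most of the 35, and surround the catalytic core. Among the core subunits, which carry flavin or iron-sulfur clusters or line the ubiquinone site, *Ndufv1* differed by -0.10, *Ndufs1* by -0.08, *Ndufs8* by -0.08 and *Ndufv2* by -0.07, while *Ndufs3* and *Ndufs7* differed by 0.05 each, with adjusted p (limma) between 0.28 and 0.69.

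*Ndufb6*, an accessory subunit of the membrane arm, read 11.28, 11.28, 11.37, 11.39, 11.30 and 11.44 in *Ppara*-/- livers and 11.41, 11.42, 11.50, 11.55, 11.48 and 11.53 in *Ppara*+/+ livers. In the *Ppara*-/- group 5 values stood under the lowest *Ppara*+/+ value, and mouse 6 overlapped. The difference was -0.14 (SE 0.04, limma adjusted p = 0.081). *Ndufa1*, a small accessory subunit encoded on the X chromosome, read 8.07, 8.20, 8.24, 8.12, 8.08 and 8.12 in *Ppara*-/- livers and 8.14, 8.33, 8.29, 8.40, 8.37 and 8.21 in *Ppara*+/+ livers. The groups overlapped, with *Ppara*+/+ mice 1 and 6 inside the range of the *Ppara*-/- livers, and the difference was -0.15 (SE 0.05, limma adjusted p = 0.10).

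The widest interval in complex I was that of *Ndufa4l2*, a relative of *Ndufa4* known to be induced by low oxygen. It averaged 9.63 ± 0.26 in *Ppara*-/- livers and 9.43 ± 0.21 in *Ppara*+/+ livers, a difference of 0.21 with a 95% interval from -0.04 to 0.46 (limma adjusted p = 0.35). Its *Ppara*-/- values ran from 9.23 to 9.96 and its *Ppara*+/+ values from 9.05 to 9.60, with mouse 1 lowest in both groups. *Ndufa4* differed by -0.06.

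Complex II, whose 4 subunits are all encoded in the nucleus, had 0 members called and was the only complex with a median above 0 (0.05). *Sdhb*, the iron-sulfur subunit, read 10.34, 10.27, 10.36, 10.43, 10.29 and 10.44 in *Ppara*-/- livers and 10.25, 10.24, 10.21, 10.28, 10.29 and 10.25 in *Ppara*+/+ livers. In the *Ppara*-/- group 5 values stood over the highest *Ppara*+/+ value. It differed by 0.10 (SE 0.04, limma adjusted p = 0.15) and was the 1 member of any complex that was higher at an unadjusted p under 0.05. *Sdha*, the flavoprotein that oxidizes succinate, went the other way. It read 11.15, 11.11, 11.18, 11.15, 11.14 and 11.20 in *Ppara*-/- livers and 11.23, 11.16, 11.23, 11.27, 11.27 and 11.34 in *Ppara*+/+ livers, a difference of -0.10 (SE 0.04, limma adjusted p = 0.17). Mouse 2 was the lowest liver of *Sdha* in both groups, and the groups overlapped through it in the *Ppara*+/+. The membrane anchors *Sdhc* and *Sdhd* differed by 0.06 and 0.04. The sign of the complex II median depended on the livers compared, since it was -0.03 within the 6 lowest animal numbers and 0.01 within the 6 highest.

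In complex III with cytochrome c, 1 of 10 members was called and 9 of 10 lay below 0, with the lowest median of the complexes (-0.08). *Uqcrq*, a small subunit beside the catalytic core, had values of 10.65, 10.63, 10.63, 10.64, 10.56 and 10.54 in *Ppara*-/- livers, against 10.81, 10.82, 10.75, 10.80, 10.77 and 10.67 in *Ppara*+/+ livers. The groups did not overlap, although *Ppara*+/+ mouse 6, the lowest of its group, came within 0.02 of the highest *Ppara*-/- liver. *Uqcrq* fell by 0.16 (SE 0.04, 95% interval -0.25 to -0.07), 1.12-fold lower in *Ppara*-/- livers, with a limma adjusted p of 0.028. The call ended with the sex score as a covariate (-0.15, adjusted p = 0.084), with a block term for the 6 lowest against the 6 highest animal numbers (-0.14, adjusted p = 0.073), and without any of *Ppara*-/- mice 2, 5 and 6 (0.056, 0.075 and 0.07) or *Ppara*+/+ mice 1, 2, 3 and 4 (0.065, 0.07, 0.051 and 0.06). Of its neighbours in gene order on chromosome 11, *Leap2* was also called (-0.23, limma adjusted p = 0.046) and *Gdf9* was not (0.05, 0.7).

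*Cycs*, the cytochrome c that shuttles electrons from complex III to complex IV, missed the threshold at a limma adjusted p of 0.055. It read 11.80, 11.52, 11.84, 11.65, 11.73 and 11.88 in *Ppara*-/- livers and 12.17, 11.87, 11.95, 12.04, 11.89 and 11.90 in *Ppara*+/+ livers. The overlap was 0.01, between *Ppara*-/- mouse 6 and *Ppara*+/+ mouse 2. The difference of -0.23 (SE 0.07, 95% interval -0.38 to -0.09) was the largest after that of *Cox6b2*. A pair of further probesets of *Cycs* gave differences of -0.31 and -0.33, and the first of them was called when all 35556 probesets were tested on their own (adjusted p = 0.038). The other was dim and was not called (adjusted p = 0.11). It averaged 5.35 in *Ppara*-/- livers and 5.68 in *Ppara*+/+ livers, under the array medians of 6.71 to 6.75. The mean of the probesets, the dim one included, was called as well (-0.29, adjusted p = 0.025), as was *Cycs* with the sex score as a covariate (-0.27, adjusted p = 0.045). *Cycs* has processed copies elsewhere in the mouse genome, which its probes may also detect.

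Among the other subunits of complex III, *Cyc1*, the haem-bearing cytochrome c1, averaged 10.76 ± 0.05 in *Ppara*-/- livers and 10.89 ± 0.08 in *Ppara*+/+ livers (-0.13, limma adjusted p = 0.12), and 4 *Ppara*-/- values stood under the lowest *Ppara*+/+ value. *Uqcrfs1*, the Rieske iron-sulfur protein, differed by -0.04, and the core proteins *Uqcrc1* and *Uqcrc2* by -0.01 and -0.07. The hinge protein *Uqcrh* was the exception to the sign of the group, at 0.08 (adjusted p = 0.38).

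In complex IV, cytochrome c oxidase, 2 of 17 members were called (11.8%), both lower, and 12 of 17 were below 0. *Cox6b2*, known as the testis form of subunit 6b, had values of 8.43, 8.77, 8.42, 8.74, 8.77 and 8.56 in *Ppara*-/- livers, against 8.94, 9.15, 9.10, 9.08, 9.34 and 9.04 in *Ppara*+/+ livers. The groups did not overlap, with the highest *Ppara*-/- liver at 8.77 and the lowest *Ppara*+/+ liver at 8.94. It fell by 0.49 (SE 0.08, 95% interval -0.66 to -0.32), 1.41-fold lower, with a limma adjusted p of 0.0019. *Cox6b1*, the form of this subunit found in most tissues, differed by 0.03 with an interval from -0.10 to 0.16. The neighbours of *Cox6b2* on chromosome 7, *Kmt5c* and *Fam71e2*, differed by 0.00 and 0.02.

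*Cox5a*, a nuclear-encoded subunit on the matrix side of the enzyme, had values of 9.88, 9.98, 10.02, 9.88, 9.90 and 9.98 in *Ppara*-/- livers, against 10.05, 10.11, 10.10, 10.19, 10.26 and 10.14 in *Ppara*+/+ livers. Each *Ppara*-/- liver lay below each *Ppara*+/+ liver. *Cox5a* fell by 0.20 (SE 0.05, 95% interval -0.30 to -0.10), 1.15-fold lower, with a limma adjusted p of 0.018. Within the 6 lowest animal numbers the difference was -0.47 for *Cox6b2* and -0.18 for *Cox5a*, and within the 6 highest -0.57 and -0.25, with 0 members called in either.

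The other subunits found in all tissues differed less. *Cox5b*, which binds zinc, lay between 11.83 and 11.93 in *Ppara*-/- livers and between 11.94 and 12.03 in *Ppara*+/+ livers, a difference of -0.11 (limma adjusted p = 0.09). *Cox6c* averaged 12.38 ± 0.03 in *Ppara*-/- livers and 12.48 ± 0.04 in *Ppara*+/+ livers, also without overlap (-0.11, adjusted p = 0.10). Another probeset of *Cox6c* averaged 12.27 in *Ppara*-/- livers and 12.32 in *Ppara*+/+ livers. It differed by only -0.05 (limma adjusted p = 0.54 over all probesets), and the mean of the *Cox6c* probesets by -0.08 (adjusted p = 0.24). *Cox7a2*, the liver form of subunit 7a, had *Ppara*-/- values of 10.50 to 10.61 and *Ppara*+/+ values of 10.61 to 10.82, which touched at the rounded value (-0.11, adjusted p = 0.16). *Cox4i1*, a subunit through which the enzyme is known to respond to ATP, differed by -0.08, *Cox7b* and *Cox6a1* by -0.05 each and *Cox8a* by -0.01.

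Several subunits of complex IV have forms restricted to other tissues, and of these only *Cox6b2* was called. The heart and skeletal muscle forms *Cox6a2*, *Cox7a1* and *Cox8b* differed by -0.01, -0.12 and -0.09, with adjusted p (limma) of 0.96, 0.21 and 0.45. Of 6 striated muscle markers 0 were called, but single livers stood apart. *Ppara*-/- mouse 3 had *Myl1* at 7.09, where the other *Ppara*-/- livers lay between 3.67 and 4.27. *Ppara*+/+ mouse 3 had *Myl1* at 8.40, where the other *Ppara*+/+ livers lay between 4.08 and 4.41, and *Acta1* at 8.85, where they lay between 6.66 and 6.97. *Cox7a1* read 8.23 in *Ppara*-/- mouse 3, the highest of its group, and 8.28 in *Ppara*+/+ mouse 3, inside the range of its group. *Cox4i2*, the form known to be induced by low oxygen, differed by 0.08, and *Cox8c* and *Cox7b2*, both known from testis, by 0.03 and 0.04. In *Ppara*-/- and *Ppara*+/+ livers *Cox7b2* averaged 3.70 and 3.66, *Cox8c* 6.47 and 6.43 and *Cox8b* 5.98 and 6.07. These means lay under the array medians of 6.71 to 6.75, where a change in expression may not show. *Cox7a2l*, which joins complexes III and IV into supercomplexes, differed by 0.11, the largest positive difference in complex IV (interval -0.01 to 0.22, adjusted p = 0.29).

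**Figure D2:**
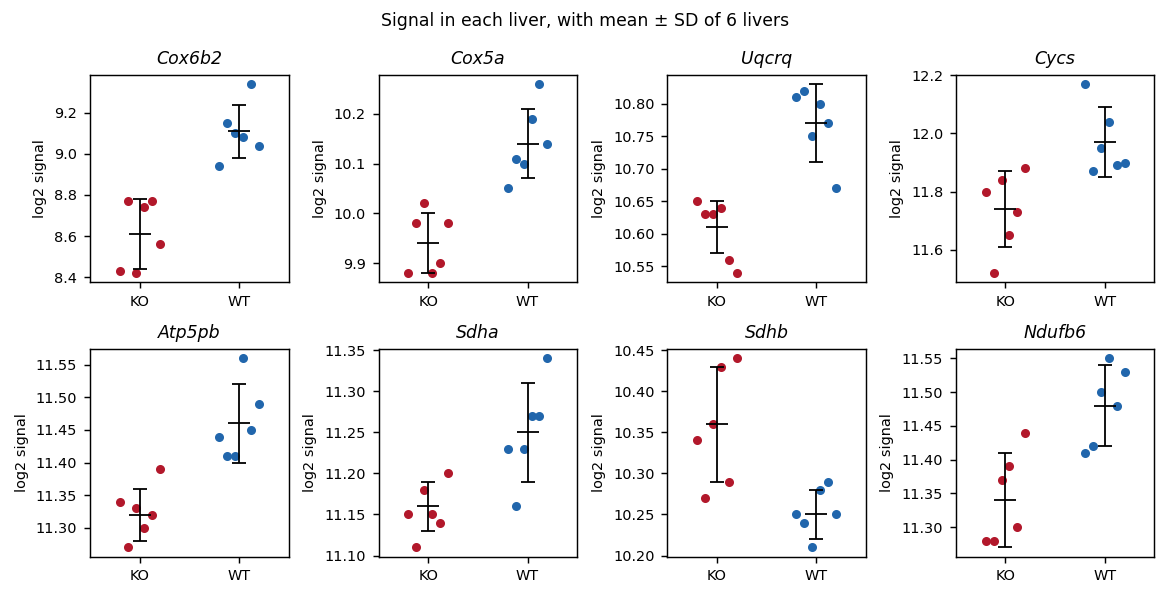
Log2 signal (y axis, a scale of its own in each panel) of 8 members in each *Ppara*-/- (KO, red) and *Ppara*+/+ (WT, blue) liver, with the mean ± SD of 6 livers. The genotypes do not overlap for *Cox6b2*, *Cox5a*, *Uqcrq* and *Atp5pb*, and *Sdhb* is the 1 panel in which the *Ppara*-/- mean (10.36) lies above the *Ppara*+/+ mean (10.25).

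The 250 bases before the start of *Cox6b2*, *Cox5a* and *Cycs* are shown because these members had the largest negative differences and because PPARα acts at DNA near its target genes. They come from RefSeq (GRCm38.p6), lie at chr7:4753095-4753344 (minus strand), chr9:57520982-57521231 (plus strand) and chr6:50566570-50566819 (minus strand), and are written in the direction of transcription. Capitals mark GCATGCGC, the site of nuclear respiratory factor 1, which starts 60 bases before the start of *Cycs*.
Cox6b2: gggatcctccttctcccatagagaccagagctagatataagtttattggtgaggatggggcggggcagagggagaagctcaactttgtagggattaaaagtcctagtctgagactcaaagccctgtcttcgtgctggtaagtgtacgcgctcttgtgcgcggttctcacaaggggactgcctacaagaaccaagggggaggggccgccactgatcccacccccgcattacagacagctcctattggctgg
Cox5a: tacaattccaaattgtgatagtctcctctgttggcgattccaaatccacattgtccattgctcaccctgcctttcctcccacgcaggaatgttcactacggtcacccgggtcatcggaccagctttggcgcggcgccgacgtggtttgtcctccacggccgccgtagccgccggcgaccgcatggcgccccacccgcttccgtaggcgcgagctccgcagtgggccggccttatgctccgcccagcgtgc
Cycs: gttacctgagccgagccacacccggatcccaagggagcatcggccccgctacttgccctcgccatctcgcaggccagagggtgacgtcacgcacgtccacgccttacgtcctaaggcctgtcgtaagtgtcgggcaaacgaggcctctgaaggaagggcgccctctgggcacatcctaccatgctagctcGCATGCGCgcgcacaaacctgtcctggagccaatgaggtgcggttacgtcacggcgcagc
Of the 83 members 67 had an entry in this promoter table, and *Uqcrq* was not among them. On either strand of these 250 bases, GCATGCGC stood in 9 of 67 members (13.4%), against 2.56% of 27025 genes. The 9 were *Cycs*, *Sdhb*, *Cox6a1*, *Ndufa6*, *Ndufa8*, *Ndufa11*, *Atp5g2*, *Atp5k* and *Atp5l*, of which 0 were called. CCGGAAGT, a site of the GABP family of factors, stood in 3 (4.48%, against 3.23%), and AAGATGGC, a site of YY1, in 1 (1.49%, against 1.83%). AGGTCA, the hexamer that many nuclear receptors recognise, stood in 10 (14.9%, against 15.8%), and 2 copies of it in a row with 1 base between, the arrangement PPARα is known to bind, in 0 (against 0.0407% of all genes). Only exact letters were sought, and the exact repeat stood in just 11 of 27025 genes. Its absence from 67 members therefore says nothing about PPARα sites that depart from these letters. A match of letters is not a bound site, and these letters may lie outside the window.

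Complex V, ATP synthase, had 0 of 17 members called, but 15 of 17 lay below 0 (12 of 17 after renewed quantile normalization), with a median of -0.04. The 3 members whose genotypes did not overlap, *Atp5pb*, *Atp5j* and *Atp5h*, all encode the peripheral stalk, which holds the catalytic head in place while the rotor turns. *Atp5pb* read 11.34, 11.27, 11.33, 11.30, 11.32 and 11.39 in *Ppara*-/- livers and 11.44, 11.41, 11.41, 11.56, 11.45 and 11.49 in *Ppara*+/+ livers. It differed by -0.14 (SE 0.04, 95% interval -0.23 to -0.05, limma adjusted p = 0.057). *Atp5j* read 12.11, 12.04, 12.07, 12.01, 12.07 and 12.06 in *Ppara*-/- livers and 12.17, 12.17, 12.19, 12.13, 12.24 and 12.16 in *Ppara*+/+ livers. The gap between the groups was narrow, 12.11 against 12.13, and the difference was -0.11 (SE 0.04, adjusted p = 0.079). *Atp5h* differed by -0.10 (adjusted p = 0.14), while *Atp5o*, which joins the stalk to the head, differed by -0.02 with an interval from -0.11 to 0.06.

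The catalytic subunits *Atp5a1* and *Atp5b* differed by -0.06 and -0.02, and *Atp5b* had an interval from -0.09 to 0.06. The central stalk subunits *Atp5c1*, *Atp5d* and *Atp5e* differed by -0.05, -0.04 and -0.02. The 3 genes that encode the same ring subunit, *Atp5g1*, *Atp5g2* and *Atp5g3*, differed by -0.07, 0.05 and -0.10. Intervals of all 17 members lay within a 1.2-fold change.

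Liver by liver, the members moved together to some extent, as the plot of complex medians shows. The median deviation of all members from the *Ppara*+/+ mean spanned -0.09 to -0.01 among the *Ppara*-/- and -0.05 to 0.06 among the *Ppara*+/+, so the genotypes overlapped. In *Ppara*-/- livers it was -0.09, -0.05, -0.03, -0.01, -0.06 and -0.05 for mice 1 to 6. In *Ppara*+/+ livers it was -0.05, -0.04, -0.02, 0.02, 0.06 and 0.03. *Ppara*-/- mouse 1 was lowest, and the *Ppara*+/+ livers below 0 were mice 1 to 3 of the labels. These 4 livers carry the 4 lowest animal numbers. All genes had a median between -0.01 and 0.03 in each liver. Complex IV was the complex in which the *Ppara*-/- medians (-0.08 to -0.03) and the *Ppara*+/+ medians (-0.03 to 0.02) touched without crossing at 2 decimals. Complex II varied most, spanning -0.14 to 0.12 among the *Ppara*-/- and -0.08 to 0.07 among the *Ppara*+/+, and *Ppara*-/- mouse 1 was its lowest liver. Without *Ppara*-/- mouse 1, 56 of 83 members lay below 0 (67.5%, against 48.2% of all genes), and *Cycs* and *Atp5j* were called beside the 3 (adjusted p of 0.043 and 0.047, limma).

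**Figure D3:**
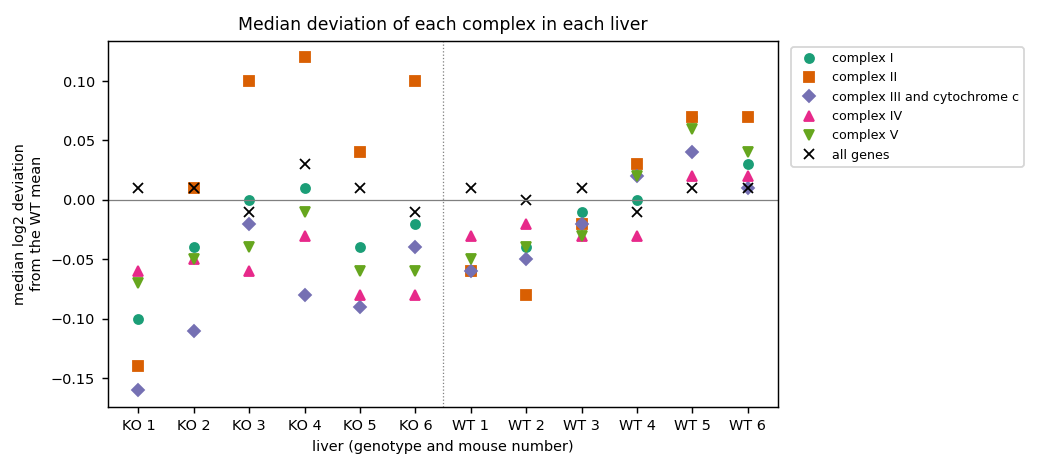
Median log2 deviation from the *Ppara*+/+ mean (y axis) over the members of each complex, in each liver (x axis, *Ppara*-/- as KO left of *Ppara*+/+ as WT). Complex II spans -0.14 to 0.12 among the *Ppara*-/- livers, and the crosses for all genes stay between -0.01 and 0.03.

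The proteins that assemble the complexes were also examined, in lists chosen with earlier results of these data known. Of 46 assembly factors 8 were lower (17.4%) and 0 higher in *Ppara*-/- livers, where 3.82% of all genes were lower. The difference between assembly factors and subunits was not tested. For complex I, 4 of 14 were lower. *Ndufaf4* had 7.63 ± 0.09 in *Ppara*-/- livers and 8.02 ± 0.14 in *Ppara*+/+ livers (-0.39, limma adjusted p = 0.0026), *Timmdc1* 9.43 ± 0.11 in *Ppara*-/- livers and 9.74 ± 0.07 in *Ppara*+/+ livers (-0.31, 0.0036), *Ndufaf1* 9.35 ± 0.04 in *Ppara*-/- livers and 9.59 ± 0.08 in *Ppara*+/+ livers (-0.24, 0.0049) and *Foxred1* 8.44 ± 0.09 in *Ppara*-/- livers and 8.70 ± 0.07 in *Ppara*+/+ livers (-0.26, 0.0072). The genotypes did not overlap for the first 3 of these and did for *Foxred1*. Each kept its call whichever liver was left out and with the sex score as a covariate (adjusted p from 0.0076 to 0.025).

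*Sdhaf1*, which helps insert the iron-sulfur clusters of *Sdhb*, had the smallest p among the assembly factors. It read 7.88, 7.68, 7.84, 7.81, 7.77 and 7.84 in *Ppara*-/- livers and 8.08, 8.24, 8.16, 8.22, 8.35 and 8.18 in *Ppara*+/+ livers, without overlap. Its difference was -0.40 (SE 0.05, limma adjusted p = 2.1e-04), and it was -0.40 within the 6 lowest and -0.45 within the 6 highest animal numbers. *Hccs*, the X-linked enzyme that attaches haem to cytochrome c and cytochrome c1, differed by -0.21 (adjusted p = 0.013, and 0.035 with the sex score). *Ttc19* of complex III (-0.20, adjusted p = 0.034) and *Coa5* of complex IV (-0.19, 0.026) were called too, but not with the sex score (0.1 and 0.075), and each kept its call in only 4 of 12 fits that left out a liver. Of 17 complex IV factors *Coa5* was the 1 called, and of 4 complex V factors 0 were.

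The largest differences in these lists were among the other routes into the chain. Of 9 genes whose proteins pass electrons to ubiquinone, directly or through another protein, 3 were lower and 1 higher. Over all genes 3.82% were lower and 3.42% higher. *Etfdh*, the ubiquinone oxidoreductase that takes electrons from fatty acid oxidation, lay between 9.91 and 10.11 in *Ppara*-/- livers and averaged 11.14 ± 0.10 in *Ppara*+/+ livers (-1.14, limma adjusted p = 9.0e-09). *Etfb*, a subunit of its electron donor, averaged 11.46 ± 0.06 in *Ppara*-/- livers and 12.02 ± 0.07 in *Ppara*+/+ livers (-0.56, 1.7e-06). *Etfa*, the other subunit of that donor, differed by -0.18 and was not called (adjusted p = 0.057). *Gpd2*, of the glycerol phosphate shuttle, differed by -0.44 (adjusted p = 0.01). *Prodh*, which oxidizes proline, differed by 0.26 at an adjusted p of 0.0499 and was called in only 1 of 12 fits that left out a liver.

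Of 12 genes of coenzyme Q synthesis and handling 2 were lower (16.7%, against 3.82% of all genes), *Coq10b* (-0.38, limma adjusted p = 0.0034) and *Coq7* (-0.18, 0.047, and 0.13 with the sex score). Of 18 regulators of mitochondrial gene expression and biogenesis 3 were lower (16.7%, against the same 3.82%). *Polg*, the mitochondrial DNA polymerase, averaged 8.77 ± 0.08 in *Ppara*-/- livers and 9.16 ± 0.08 in *Ppara*+/+ livers (-0.39, adjusted p = 2.9e-04), *Esrrg*, an orphan nuclear receptor, 6.38 ± 0.14 in *Ppara*-/- livers and 6.72 ± 0.07 in *Ppara*+/+ livers (-0.34, 0.0041), and *Tfb1m*, which methylates mitochondrial ribosomal RNA, 9.12 ± 0.10 in *Ppara*-/- livers and 9.33 ± 0.10 in *Ppara*+/+ livers (-0.21, 0.04, and 0.1 with the sex score). The factors best known for driving nuclear respiratory genes were not called. *Nrf1* differed by -0.03, *Gabpa* by -0.02, *Esrra* by 0.03 and *Yy1* by 0.01, and the coactivator *Ppargc1a* by 0.43 (adjusted p = 0.093). Of the subunits encoded in mitochondrial DNA 2 were measured, and ND3 and COX2 differed by -0.06 and -0.01.

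**Figure D4:**
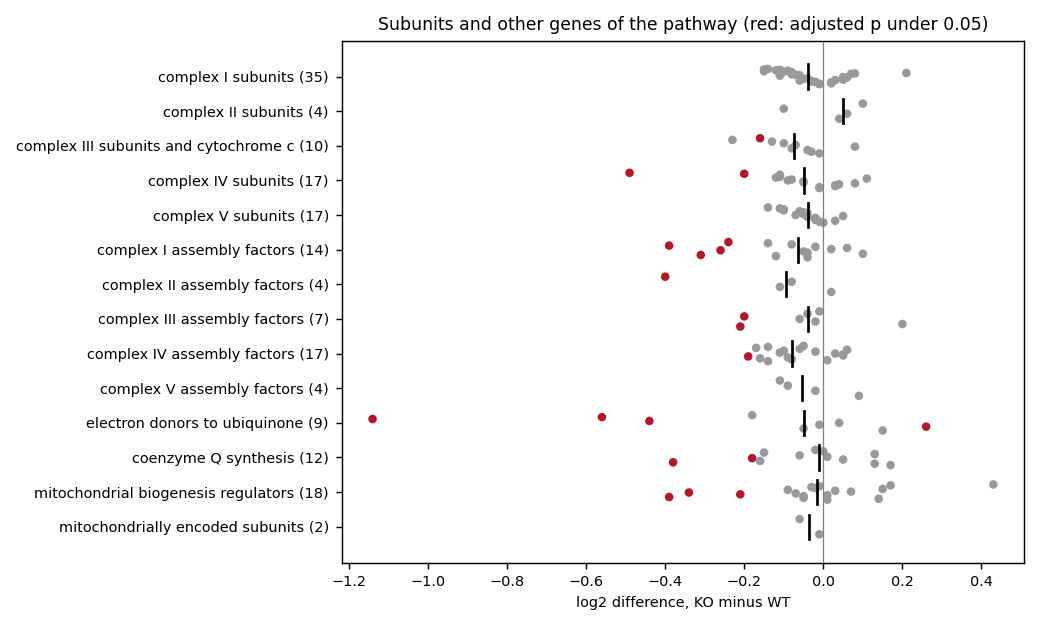
Log2 difference (x axis, *Ppara*-/- minus *Ppara*+/+) of each subunit, assembly factor, electron donor, coenzyme Q gene, regulator and mitochondrially encoded subunit (1 point per gene, number measured in brackets, bar at the median). Red points passed an adjusted p of 0.05, and *Etfdh* lies farthest to the left at -1.14.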

How the data were processed

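Total RNA of 12 whole livers was measured on 12 Affymetrix mouse gene arrays. The deposited values are log2 signals that the authors made by RMA (background correction, between-array normalization and 1 summary per probeset). Neither its version nor a build is given in the sources used here. The number of arrays limits the precision. Of 35556 probesets, 21789 had 1 gene symbol in the platform table, 1621 several and 12146 none. The probeset with the highest mean stood for each of 19938 genes, 83 of them members, of which 17 had several probesets (the sign was the same over all of them for 15). No filter on low signals was used. Livers were grouped by the genotype in their titles, and animal numbers come from the labels. *Ppara*-/- minus *Ppara*+/+ was tested (two-sided, no covariates) in limma 3.58.1 under R 4.3.3, using lmFit and eBayes, with Benjamini-Hochberg adjustment over all genes and a threshold of 0.05; the procedure was tested on simulated data. Members and lists were chosen with earlier results of these data known. Values in every liver are given for called members, for the 2 members with the smallest p in complexes with none, and for *Cycs* and *Sdhaf1*, added after their values were seen, as were the regulators named without a call. Other settings tried were normalization, signal filters, probeset choice, variance model, array weights, covariates (sex score: *Xist* minus Y-linked genes; erythroid score; animal number), blocks, the 6 lowest and 6 highest animal numbers apart, the exact Mann-Whitney test and fits without each liver. Tables and figures used Python 3.11.15, pandas 2.3.3 and matplotlib 3.10.9.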

Additional observations from a re-analysis of the deposited data

Results flagged for a closer look

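In 5 of 166 groups of 6 livers (83 members in each genotype) the highest or lowest liver stood far from the rest of its group, by a gap that chance alone gives in about 1 in 20 groups. *Sdhc* read 10.58 in *Ppara*-/- mouse 1, where the lowest of the other *Ppara*-/- livers read 10.91. *Ndufb10* read 7.94 in *Ppara*-/- mouse 4, against 7.81 to 7.85 in the others of its group. *Ndufa11* read 9.94 in *Ppara*+/+ mouse 1, against 9.41 to 9.58 in the others, and *Uqcrh* read 11.02 in that same liver, against 11.17 to 11.24. *Cox7a2* read 10.82 in *Ppara*+/+ mouse 3, against 10.61 to 10.68. No cause was tested.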

How the results depend on the processing

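No member with an unadjusted p under 0.05 changed sign under any setting, and 0 members were higher in any of them. The median of complex II, 0.05, was -0.03 within the 6 lowest animal numbers and -0.01 with a block for the 6 lowest against the 6 highest. The count of lower members, 3 in the comparison reported, was 6 with the dimmest 25% of genes removed (6.31% of all genes were then lower), 12 with the dimmest 50% removed (10.6%), 10 with an intensity trend and robust variances (4.62%), 8 with array weights (7.31%) and 6 with the animal number as a covariate (4.78%). It was 0 within the 6 lowest and 0 within the 6 highest animal numbers (0.818% and 0.532% of all genes), and 0 by the exact Mann-Whitney test, whose smallest adjusted p was 0.06 (24 members had an unadjusted p under 0.05). The Mann-Whitney test called 0 of all 19938 genes in either direction, so a call lost there says nothing about a single gene. Leaving out each liver gave 2 to 5. In the same order of settings, complex III had 2, 3, 2, 2, 2, 0, 0 and 0, and 2 with the mean of all probesets, and complex IV 4, 4 and 4 with the 50% filter, the trend and the weights and 0 in the last 3. Complex V had 2, 3, 3, 2 and 1 with the filters, trend, weights and animal number, and complex I had 2, 1 and 1 with the 50% filter, the trend and the animal number. Leaving out each liver gave 0 to 1 in complex I, 0 to 2 in complex III, 2 to 2 in complex IV and 0 to 1 in complex V, where *Ndufb3* was added without *Ppara*+/+ mouse 1 and *Cycs* without *Ppara*+/+ mouse 6. The filters test fewer genes, and the split by animal number leaves fewer livers; otherwise the cause was not tested. *Cox6b2* and *Cox5a* lost their calls only within the split by animal number and by the Mann-Whitney test, which called 0 genes. Over the other settings the adjusted p ranged from 5.4e-04 to 0.0076 and from 0.0062 to 0.0495. Called genes of the pathway lists numbered 3 within the 6 lowest and 3 within the 6 highest animal numbers and 0 by the Mann-Whitney test, and 12 to 21 with a liver left out, and assembly factors 0, 1, 0 and 6 to 9 (settings for these lists were added after the data were seen). With the erythroid score as a covariate 3 members were lower (3.47% of all genes were). They were *Cox6b2* (-0.49, limma adjusted p = 0.0039), *Cox5a* (-0.20, 0.026) and *Uqcrq* (-0.16, 0.036). With the mouse number as a block (replicate block), 4 members were lower, *Cycs* being the fourth, and 2 of them were in complex III. The labels do not say that a number marks a shared litter, and same-numbered livers correlated at 0.02 to 0.39 (over 0.1 in 4 of 6 pairs), with 5 of 12 livers closest to their own number, so the numbers were not taken as pairs.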

Other observations

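The probesets of members that share a second symbol gave close values in both genotypes. The 3 probesets of *Cox7c*, which also match *Gm12338*, averaged 12.68, 12.78 and 12.72 in *Ppara*-/- livers and 12.71, 12.81 and 12.74 in *Ppara*+/+ livers. The pair shared by *Ndufb4* and *Ndufb4b* averaged 11.40 and 11.51 in *Ppara*-/- livers and 11.40 and 11.52 in *Ppara*+/+ livers.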
